A study of Mus musculus with 10 samples.

Results

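Ciliary transport and transition zone genes were followed across retinas of wild-type (WT) and rd10 mice. The list held 51 genes for the BBSome, intraflagellar transport (IFT), the transition zone and the carriers of ciliary cargo, chosen for the function of their products. Of these, 49 were in the deposited table of 11702 genes, and all 49 passed the filter on low counts in each comparison. Tctn2 and Kif17 were not in that table. Kif17 was taken from the transcript counts and Tctn2 was not analysed here.

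RNA was measured in retinas of 10 female mice, 1 library each. The 4 libraries labelled WT and 3 rd10 libraries came from mice injected with DMSO, and 3 rd10 libraries from mice injected with halofantrine (HAL), an antimalarial drug. Every mouse received 1 μL into the vitreous, DMSO or 20 μM halofantrine, at postnatal days 10 and 24, and the retinas were taken at day 36. The stated strain is B6.CXB1-Pde6b rd10/J, in which the rod phosphodiesterase subunit Pde6b is mutated and rods die first. The background of the WT mice is not given in the sources used here, so a difference in background, if there was one, cannot be told apart from the genotype. The labels place the WT libraries, rd10 DMSO replicates 1 and 2 and rd10 HAL replicate 1 in batch 1, and the other rd10 libraries in batch 2.

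The outer segment of a photoreceptor is a modified primary cilium. All its proteins pass through the connecting cilium, which corresponds to the transition zone of other cilia. IFT-B trains driven by kinesin-2 carry cargo toward the tip, and IFT-A trains return with dynein-2. The BBSome, a coat complex recruited by the GTPase ARL6, removes membrane proteins from the cilium. Lipid-modified proteins such as transducin and phosphodiesterase are carried by UNC119 and PDE6D and released by ARL3, whose own GTPase-activating protein is RP2. Mutations in many of these genes cause retinal dystrophy, alone or within ciliopathies such as Bardet-Biedl and Joubert syndromes.

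Gene counts per library ranged from 15512212 in rd10 DMSO replicate 3 to 38160436 in rd10 DMSO replicate 2. Levels are given as CPM, counts relative to the library total, scaled between libraries by the trimmed mean of M-values (TMM). The library labelled WT replicate 4 went against its label: Pde6b stood at 93.1 CPM there, at 2699 to 2855 in WT replicates 1 to 3, and at 125 to 387 in the 6 rd10 libraries. The summed level of 12 rod genes was 3259 CPM in that library, 76639 to 80999 in the other WT libraries and 4064 to 11718 in rd10. It also lay within the rd10 range for 33 of the 49 ciliary members, below it for 13 and above it for 3, where 76.1% of all genes lay within that range. The rd10 against WT comparison was therefore run with and without this library. Values below are without it unless all WT libraries are named.

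With all libraries as labelled, edgeR's quasi-likelihood test called none of 11698 genes between rd10 DMSO and WT at an adjusted p of 0.05. At an unadjusted p under 0.05, 3108 genes passed (26.6%; 17.3% lower and 9.3% higher), among them 34 of the 49 members, 33 lower and 1 higher. DESeq2 called 589 genes and 8 members, all 8 lower in rd10, and limma-voom called 0. The median log2 difference of the members was -0.49, against -0.02 over all genes tested. Most members shared an adjusted p of 0.187.

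Without the library labelled WT replicate 4, most ciliary genes were lower in rd10 retina. Of the 49 members 42 were lower (85.7%), 1 was higher and 6 did not pass, while 62.2% of all 11696 genes tested passed, 29.9% lower and 32.3% higher. At an unadjusted p under 0.05, 43 members passed and 66.2% of all genes did. The split over all genes depended on the scaling: with libraries scaled to inner retina markers 84.7% of genes were lower, 2.01% were higher and 48 members were lower, and with library size alone 17.4% were lower, 46.2% were higher and 32 members were lower. The median log2 difference was -0.63 for the members and -0.01 for all genes tested. In 43 members every one of WT replicates 1 to 3 stood above every rd10 DMSO library, which held for 35.5% of all genes. The opposite order was seen in 1 member, Tulp3, and in 33.6% of all genes. In bulk tissue, fewer cells of a type and less RNA per cell cannot be told apart.

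The retinas also differed in their cell markers in this comparison, and the directions below are those under TMM scaling. Scaling to the bipolar, amacrine and ganglion cell markers moved the median of all genes by -0.979. The values of the markers under that scaling are not given here. All 12 rod markers were lower in rd10, with a median log2 difference of -3.12. All 6 measured Müller glia markers, 6 reactive gliosis markers and 5 microglia markers were higher, as were 6 of 8 bipolar and 10 of 11 amacrine and ganglion cell markers. Of the 10 cone markers 4 were higher and 2 lower, and their summed level was 2128 to 2286 CPM in WT replicates 1 to 3 and 2116 to 2508 CPM in rd10 DMSO. All 5 measured pigment epithelium genes were above 0, of which Tyrp1 passed (2.99, adjusted p = 0.0227), and their summed level was 43.1 to 277 CPM in WT replicates 1 to 3 and 152 to 370.1 CPM in rd10 DMSO. The 3 measured blood genes were lower, and none of the lens or motile cilia markers was in the gene table. None of these markers was called by edgeR with all WT libraries, and the 12 rod markers had a median of -2.74 and an unadjusted p under 0.05. The part of these shifts in the member differences was not tested.

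**Figure D1:**
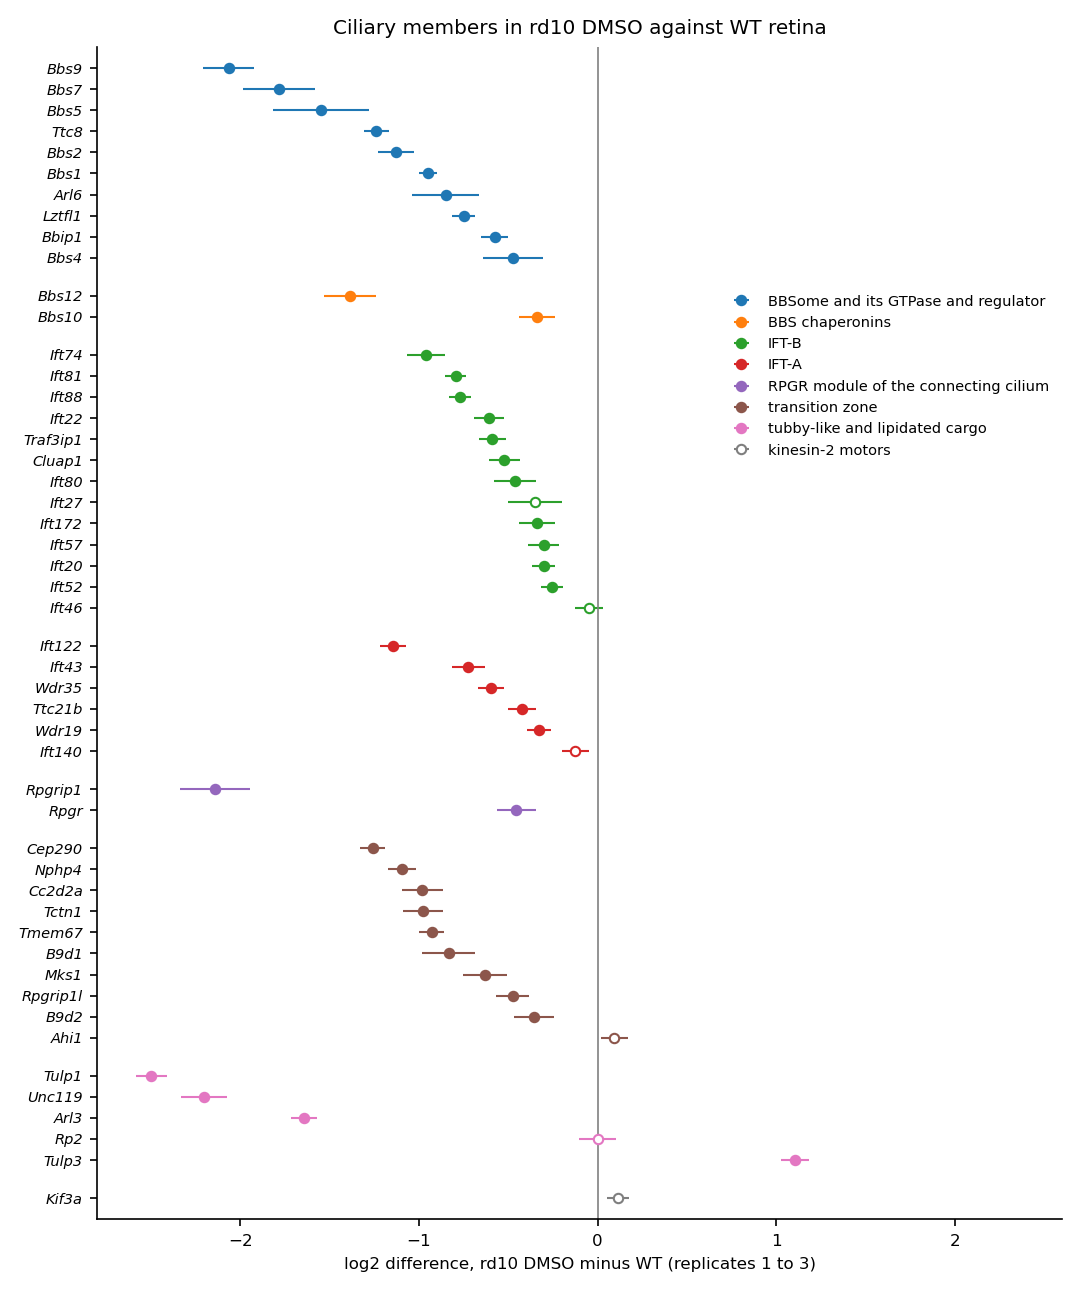
Log2 difference between rd10 DMSO and WT replicates 1 to 3 for each of the 49 members, grouped by role; bars are 1 standard error, filled points have an adjusted p under 0.05 and open points do not. The cargo carriers hold the lowest member, Tulp1 at -2.50, and the highest, Tulp3 at 1.11, and all 10 genes of the BBSome group lie left of 0.

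The tubby-like proteins and carriers of lipidated cargo held both ends of the range. Tulp1, a photoreceptor tubby-like protein needed for protein transport to the outer segment, stood at 1188, 1237 and 1219 CPM in WT replicates 1 to 3. It was at 163 CPM in the library labelled WT replicate 4, at 198, 209 and 233 CPM in rd10 DMSO and at 216, 348 and 322 CPM in rd10 HAL. The groups were far apart, and the rd10 DMSO difference from WT was -2.50 ± 0.09 (log2, standard error, adjusted p = 8.12e-06, 3 against 3 libraries). With all WT libraries it was -2.16 ± 0.64, with an adjusted p of 0.187.

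Unc119, the carrier of myristoylated transducin, stood at 1571, 1615 and 1581 CPM in WT replicates 1 to 3, and at 286 CPM in the library labelled WT replicate 4. It was at 313, 303 and 410 CPM in rd10 DMSO and at 317, 425 and 388 CPM in rd10 HAL. The log2 difference in rd10 DMSO was -2.21 ± 0.13 (adjusted p = 2.02e-05), and -1.88 ± 0.57 with all WT libraries (adjusted p = 0.187). Unc119b, a broadly expressed relative of Unc119 from the wider list of ciliary genes, did not pass (adjusted p = 0.963, standard error 0.07) and stood at 52.1, 56.3 and 49.8 CPM in WT replicates 1 to 3 and at 52.4, 52.9 and 51.3 CPM in rd10 DMSO.

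Arl3, the GTPase that releases such cargo inside the cilium, stood at 185, 190 and 209 CPM in WT replicates 1 to 3, at 58.9 CPM in the library labelled WT replicate 4, and at 63.1, 58.4 and 63.9 CPM in rd10 DMSO. Its log2 difference was -1.64 ± 0.07 (adjusted p = 1.04e-05), and -1.38 ± 0.40 with all WT libraries. Rp2, which switches ARL3 off, did not pass. Rp2 stood at 16.6, 17.4 and 20.4 CPM in WT replicates 1 to 3 and at 19.3, 17.1 and 17.5 CPM in rd10 DMSO, so the groups overlapped, and the adjusted p of edgeR was 0.999 with a standard error of 0.10.

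Tulp3, which brings receptors into cilia on IFT-A trains and is not photoreceptor-specific, was the member that rose. It stood at 25.0, 26.1 and 22.9 CPM in WT replicates 1 to 3, at 50.8 CPM in the library labelled WT replicate 4, and at 51.5, 55.6 and 50.9 CPM in rd10 DMSO. All rd10 DMSO libraries were above all of WT replicates 1 to 3, by 1.11 ± 0.08 on the log2 scale (adjusted p = 3.93e-05), and the value was 0.75 ± 0.28 with all WT libraries (adjusted p = 0.187). When libraries were scaled to the bipolar, amacrine and ganglion cell markers, the difference was 0.13 with an adjusted p of 0.172, and Tulp3 no longer passed. That scaling moved the median of all genes by -0.979 and scaling to library size alone by 0.206. A change of scaling shifts all genes of a library alike. The members' median relative to that of all genes therefore could hardly move, and its -0.62 under both and in the main scaling is no check.

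Both genes of the RPGR module were lower. Rpgrip1, the protein that anchors RPGR in the connecting cilium, stood at 2392, 2306 and 2410 CPM in WT replicates 1 to 3 and at 367 CPM in the library labelled WT replicate 4. It was at 399, 501 and 699.9 CPM in rd10 DMSO and at 423, 587 and 569 CPM in rd10 HAL. Its log2 difference was -2.14 ± 0.20 (adjusted p = 9.65e-05), and -1.81 ± 0.62 with all WT libraries (adjusted p = 0.187).

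Rpgr itself, the gene of the most frequent X-linked retinitis pigmentosa, differed less. It stood at 69.0, 65.0 and 67.1 CPM in WT replicates 1 to 3, at 48.2 CPM in the library labelled WT replicate 4 and at 40.8, 49.1 and 55.9 CPM in rd10 DMSO. The log2 difference of -0.45 ± 0.11 passed (adjusted p = 0.00901) but did not when libraries were scaled to their size alone (-0.25, adjusted p = 0.0821). With all WT libraries it was -0.36 ± 0.16 (adjusted p = 0.191).

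In the BBSome group all 10 genes were lower, with a median log2 difference of -1.04 and a range from -2.06 for Bbs9 to -0.47. Bbs9, Bbs7, Bbs1 and Ttc8 encode core subunits, and Arl6 the GTPase that recruits the coat to membranes. Bbs9 stood at 129, 133 and 134 CPM in WT replicates 1 to 3, at 24.7 CPM in the library labelled WT replicate 4 and at 26.1, 29.1 and 39.2 CPM in rd10 DMSO. Its log2 difference was -2.06 ± 0.14 (adjusted p = 3.48e-05).

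Bbs7 stood at 187, 184 and 186 CPM in WT replicates 1 to 3, at 38.5 CPM in the library labelled WT replicate 4 and at 42.6, 44.8 and 74.3 CPM in rd10 DMSO, a log2 difference of -1.78 ± 0.20 (adjusted p = 0.000235). Bbs1 stood at 171, 166 and 175 CPM in the same WT libraries, at 82.6 CPM in the library labelled WT replicate 4 and at 86.8, 87.3 and 88.3 CPM in rd10 DMSO, with a log2 difference of -0.95 ± 0.05 (adjusted p = 1.66e-05). The differences between subunits of this complex were not tested. No WT library among replicates 1 to 3 overlapped rd10 for either gene. With all WT libraries the log2 differences of Bbs9, Bbs7 and Bbs1 were -1.74, -1.46 and -0.76, each with an adjusted p of 0.187.

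Ttc8, also known as Bbs8, stood at 166, 162 and 164 CPM in WT replicates 1 to 3, at 65.7 CPM in the library labelled WT replicate 4 and at 63.8, 75.0 and 67.7 CPM in rd10 DMSO. The log2 difference was -1.24 ± 0.07 (adjusted p = 1.97e-05), and -1.02 with all WT libraries (adjusted p = 0.187). Arl6 was at 118, 117 and 124 CPM in WT replicates 1 to 3 and at 50.1, 60.0 and 88.3 CPM in rd10 DMSO, with -0.85 ± 0.19 (adjusted p = 0.00574), or -0.62 with all WT libraries (adjusted p = 0.238). The chaperonin-like genes Bbs12 and Bbs10, whose products help the BBSome to assemble, were both lower, with log2 differences of -1.39 and -0.34. Bbs12 falls outside the rule for named genes and was named after its value was seen.

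The IFT genes had medians nearer to 0 than the BBSome group. In IFT-B 11 of 13 genes were lower, with a median of -0.46 and a range from -0.96 to -0.05. Ift88, the gene mutated in the Oak Ridge polycystic kidney mouse, stood at 39.9, 39.7 and 40.3 CPM in WT replicates 1 to 3, at 24.9 CPM in the library labelled WT replicate 4 and at 23.8, 23.5 and 22.5 CPM in rd10 DMSO. The spread within groups was small and the difference was -0.77 ± 0.06 (adjusted p = 6.35e-05), or -0.64 ± 0.18 with all WT libraries (adjusted p = 0.187). Ift20, the IFT protein that also sits at the Golgi, was lower, at -0.30 ± 0.06 (adjusted p = 0.00489), or -0.26 with all WT libraries (adjusted p = 0.187). Ift27 at -0.35 ± 0.15 (adjusted p = 0.0802) and Ift46 at -0.05 ± 0.08 (adjusted p = 0.617) did not pass. Ift46 falls outside the rule for named genes and was named after its value was seen.

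In IFT-A 5 of 6 genes were lower, with a median of -0.51. Ift122, a core subunit, stood at 90.8, 99.1 and 91.8 CPM in WT replicates 1 to 3, at 39.4 CPM in the library labelled WT replicate 4 and at 41.9, 45.0 and 39.2 CPM in rd10 DMSO, a difference of -1.145 ± 0.07 (adjusted p = 2.56e-05), or -0.93 with all WT libraries (adjusted p = 0.187). Ift140, also a core subunit, stood at 64.6, 63.4 and 65.8 CPM in WT replicates 1 to 3 and at 57.8, 64.5 and 53.8 CPM in rd10 DMSO. These groups overlapped and Ift140 did not pass, at -0.12 ± 0.08 (adjusted p = 0.191). Whether Ift122 and Ift140 differ in their response was not tested.

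In the transition zone 9 of 10 measured genes were lower, with a median of -0.88. Cep290, which links the microtubules of the transition zone to the membrane and is mutated in the LCA10 form of congenital blindness, stood at 247, 236 and 254 CPM in WT replicates 1 to 3. It was at 100.2 CPM in the library labelled WT replicate 4, at 94.1, 109.6 and 102 CPM in rd10 DMSO and at 100.04, 120.2 and 109.98 CPM in rd10 HAL. The log2 difference was -1.26 ± 0.07 (adjusted p = 1.97e-05), and -1.04 ± 0.31 with all WT libraries (adjusted p = 0.187). Nphp4, a nephrocystin of the same region, was lower, at -1.10 ± 0.08 (adjusted p = 4.03e-05), or -0.87 with all WT libraries (adjusted p = 0.187).

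Ahi1, the jouberin gene, was the measured transition zone gene that did not pass. Its levels of 230, 216 and 229 CPM in WT replicates 1 to 3 overlapped those of 223, 232 and 260 CPM in rd10 DMSO, and the difference was 0.09 ± 0.07 (adjusted p = 0.308). Kif3a, a motor subunit of heterotrimeric kinesin-2, also did not pass, at 0.11 ± 0.06 (adjusted p = 0.149). For both genes the direction depended on the scaling. Scaled to inner retina markers, both passed as lower, Ahi1 at -0.89 (adjusted p = 2.57e-05) and Kif3a at -0.87 (adjusted p = 4.39e-06), and scaled to library size alone both passed as higher, at 0.30 (adjusted p = 0.00822) and 0.32 (adjusted p = 0.00297). Kif17, the homodimeric kinesin-2 motor, was at 6.83, 7.71 and 6.42 CPM in WT replicates 1 to 3 and at 6.43, 7.95 and 12.2 CPM in rd10 DMSO on the scale of the transcript counts, so the groups overlapped.

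**Figure D2:**
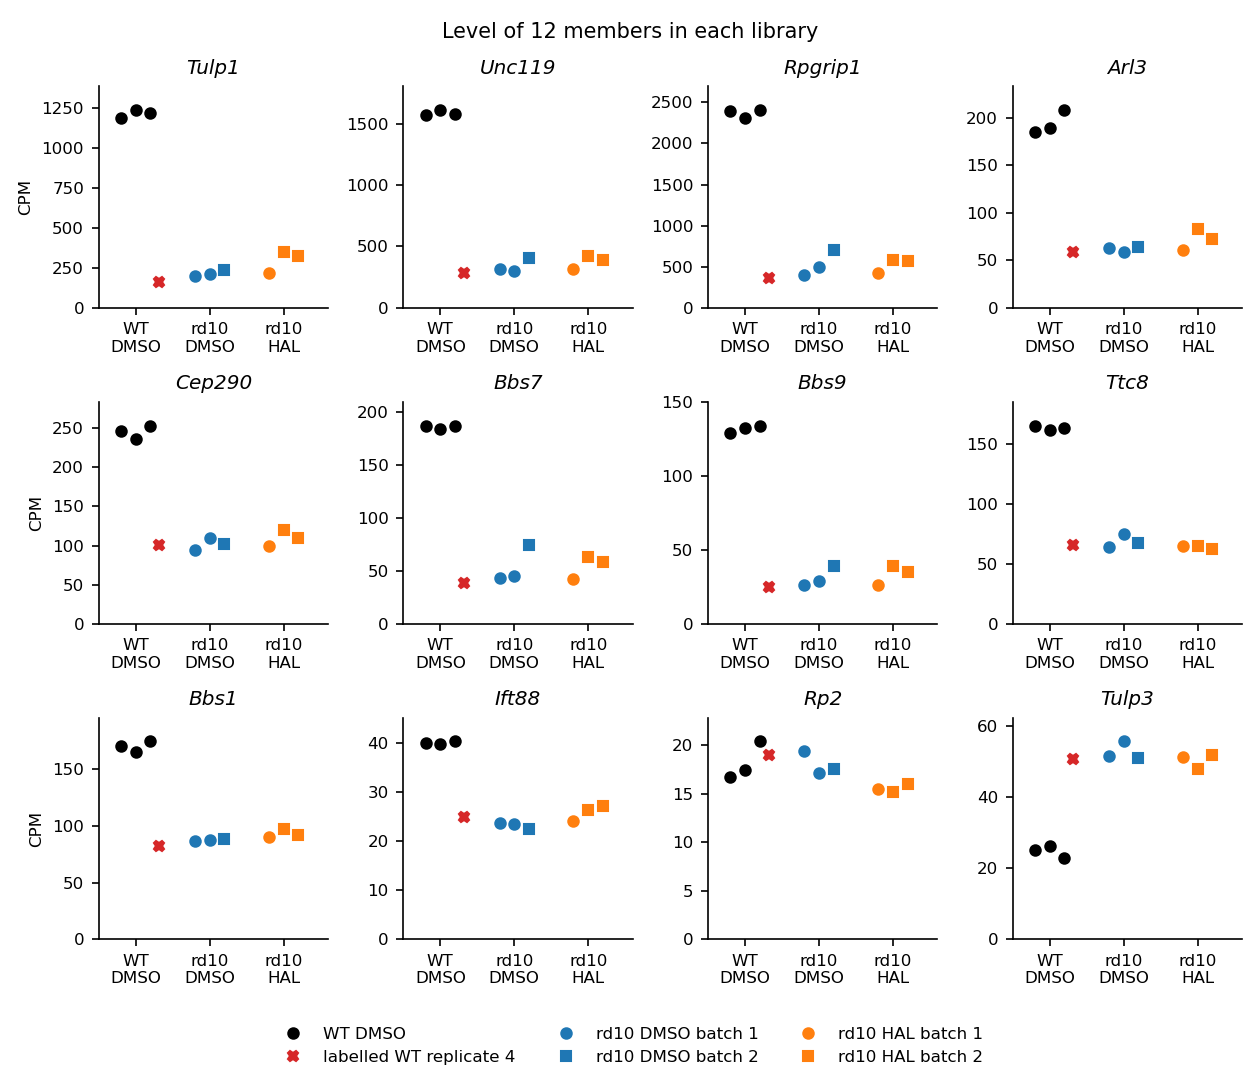
Level in CPM (linear axis from 0) of 12 members in each of the 10 libraries; circles are batch 1, squares batch 2, and the red cross is the library labelled WT replicate 4. That cross lies nearer to the rd10 libraries than to the other WT libraries for Tulp1, Unc119, Rpgrip1 and Tulp3, and Rp2 is the panel in which WT and rd10 DMSO overlap.

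Within batch 1 alone, which leaves out rd10 DMSO replicate 3, 42 members were lower and 2 higher, Tulp3 at 1.13 and Kif3a at 0.16 (adjusted p = 0.0131), while 35.9% of all genes were lower and 36.5% higher. The sample titles give WT replicates 1 to 3 the set name set1, the library labelled WT replicate 4 set1_5 and the rd10 libraries of batch 1 set2, so that set and genotype cannot be told apart within this batch. A wider list of 52 measured ciliary genes, drawn up by role, held 36 lower and 3 higher genes between rd10 DMSO and WT replicates 1 to 3 with both batches, where 29.9% of all genes were lower and 32.3% higher, with a median of -0.68. None of the 52 was called by edgeR with all WT libraries, 27 had an unadjusted p under 0.05 and the median was -0.54. Its genes below were named after their values were seen. The lowest was Rp1, a microtubule-associated protein of the photoreceptor axoneme, at 2357, 2364 and 2415 CPM in WT replicates 1 to 3 and 166, 192 and 514 CPM in rd10 DMSO (-3.02, adjusted p = 0.000653, or -2.64 with all WT libraries, adjusted p = 0.187). Among the higher genes were the neuronal kinesin-2 subunit Kif3c (0.58, adjusted p = 8.11e-05) and the kinesin adaptor Kifap3 (0.22, adjusted p = 0.0230). Their partner Kif3b was lower (-1.06, adjusted p = 0.000116). With all WT libraries edgeR gave 0.38 for Kif3c (adjusted p = 0.189), 0.13 for Kifap3 (0.395) and -0.85 for Kif3b (0.187). These values are under TMM scaling, and those under other scalings are not given here. Of the RFX factors, which switch on ciliary genes, Rfx1 (-0.97, adjusted p = 5.48e-05) and Rfx3 (-0.28, adjusted p = 0.00889) were lower, and Rfx2, Rfx5 and Rfx7 did not pass.

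RFX factors bind the X-box, whose conserved arm reads GTTGCC. These letters were therefore looked for, on both strands, in RefSeq promoter windows of 300 bases (250 before to 50 after the start site, build GRCm38.p6). The choice of letters was made after the expression values were known. Windows were found for 47 of the 51 listed genes. GTTGCC occurred in 20 of 55 member windows (36.4%), in 12.7% of the windows of genes in the deposited table and in 12.5% of all 32851 windows. It was also found in 28.3% of 60 windows of the wider ciliary list. TAATCC, the letters preferred by the photoreceptor factor CRX, occurred in 3 of the 55 member windows (5.45%) and in 7.06% of all windows. The search letters do not overlap each other, and a match is no proof of binding.

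The stretches below show where these letters fall in members that differed between WT and rd10, as 130 bases up to the start site with matches in capitals. Bbs7 (chr3:36613390-36613519, minus strand), Ift57 (chr16:49699164-49699293, plus strand) and Mks1 (chr11:87853085-87853214, plus strand) hold GTTGCC, and Ift57 holds it at 2 places. Rpgrip1 (chr14:52110773-52110902, plus strand) and Unc119 (chr11:78345454-78345583, plus strand) hold TAATCC on the opposite strand, printed here as GGATTA. Ift57 and Mks1 fall outside the rule for named genes and were chosen for their matches.
Bbs7: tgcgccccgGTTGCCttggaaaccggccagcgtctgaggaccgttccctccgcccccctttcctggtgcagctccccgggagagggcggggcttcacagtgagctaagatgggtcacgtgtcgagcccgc
Ift57: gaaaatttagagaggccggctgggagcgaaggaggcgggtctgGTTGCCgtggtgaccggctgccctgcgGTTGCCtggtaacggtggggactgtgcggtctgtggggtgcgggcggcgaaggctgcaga
Mks1: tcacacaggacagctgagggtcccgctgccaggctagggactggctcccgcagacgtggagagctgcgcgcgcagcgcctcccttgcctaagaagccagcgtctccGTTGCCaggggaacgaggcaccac
Rpgrip1: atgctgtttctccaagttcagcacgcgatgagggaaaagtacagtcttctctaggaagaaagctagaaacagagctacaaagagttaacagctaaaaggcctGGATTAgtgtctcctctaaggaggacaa
Unc119: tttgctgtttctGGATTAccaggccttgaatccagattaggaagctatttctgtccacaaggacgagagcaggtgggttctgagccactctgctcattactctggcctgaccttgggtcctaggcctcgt

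The members with and without GTTGCC had alike medians. The 18 measured members with it had a median log2 difference of -0.61 between rd10 DMSO and WT replicates 1 to 3, and so did the 27 without it. The values ran from -1.78 to 0.11 with it and from -2.50 to 1.11 without it. Of the 18, 14 passed the test between rd10 DMSO and WT, and of the 27, 25 did.

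Transcript counts gave a finer view of the same libraries without the one labelled WT replicate 4. Of 57733 transcripts tested, 7.52% were lower and 7.98% higher in rd10 DMSO. Of 239 transcripts of the members, 94 were lower and 1 was higher, the coding transcript Tulp3-201 at 1.32 ± 0.10 (adjusted p = 0.00149). With all 4 WT libraries 1 transcript was called in all and none of the members'. Leaving out 1 further library instead gave 4021 to 10722 calls in all and 55 to 101 member transcripts lower. In 4 of the 37 members with at least 2 transcripts above 10% of the gene, the mean share of a transcript differed by 15 percentage points or more: Ttc8, Cep290, Cc2d2a and B9d1. This held for 9.43% of 6733 such genes in all, near the share of the members, and the difference in shares was not tested.

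Ttc8-201, which holds the short exon described below, made up 40.4%, 43.8% and 46.1% of the gene's counts in WT replicates 1 to 3 and 27.6%, 22.1% and 31.1% in rd10 DMSO, and it fell by 1.86 ± 0.11 on the log2 scale (adjusted p = 0.000843). Cep290-201 fell by 2.55 ± 0.39 (adjusted p = 0.00908), from 32.9%, 45.9% and 42.3% of the gene in WT replicates 1 to 3 to 10.2%, 11.4% and 26.1% in rd10 DMSO. Cep290-206 was at 10.1%, 4.22% and 8.61% in the same WT libraries and at 38.4%, 30.7% and 20.6% in rd10 DMSO, while its level did not pass, at 0.77 ± 0.38 (adjusted p = 0.247). In rd10 HAL Ttc8-201 was at 26.0%, 25.1% and 27.3%, within the rd10 DMSO range. Cep290-201 was at 8.42%, 0.461% and 5.09% there, below every rd10 DMSO library. Cep290-206 was at 45.8%, 30.7% and 40.9% in rd10 HAL, which overlapped rd10 DMSO.

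For Cc2d2a, a transition zone gene of Joubert and Meckel syndromes, Cc2d2a-201 fell by 1.41 ± 0.19 (adjusted p = 0.0061), while Cc2d2a-202 was at 0.16 ± 0.09 (adjusted p = 0.319). B9d1-201, of a gene that encodes a B9-domain protein of the transition zone, fell by 1.33 ± 0.20 (adjusted p = 0.00901). Its share was 57.1%, 49.4% and 61.4% in WT replicates 1 to 3, 43.9%, 38.7% and 31.2% in rd10 DMSO and 49.8%, 54.7% and 47.4% in rd10 HAL, which overlapped WT. For Cc2d2a-201 the share was 75.1%, 72.0% and 75.2% in WT replicates 1 to 3 and 48.2%, 47.8% and 58.9% in rd10 DMSO. It was 53.7%, 56.1% and 55.7% in rd10 HAL, which overlapped rd10 DMSO. Whether these shares differ between the treatments was not tested. Kallisto splits reads among overlapping transcripts by estimation, so these shares carry more uncertainty than gene counts.

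The transcripts of Ttc8, Cep290 and Cc2d2a differ by short coding exons. Ttc8-201, Cep290-201 and Cc2d2a-201 include such an exon, and Cep290-206 and Cc2d2a-202 skip it. Photoreceptors are known to include some short exons that most other cells skip, and the part of cell numbers in these shares was not tested. Coding exons of at most 51 bases that some transcripts of a member include and others skip were listed from GENCODE models (build GRCm38), and the share of transcripts that include them was computed per library from length-scaled counts. This search was added after the transcript results were seen. Of 14 such exons, 12 in 10 genes had a share between 5% and 95% in some library. For 4 of these, WT replicates 1 to 3 were all above all 6 rd10 libraries, and for none were they all below. All 4 lie in Ttc8, Cep290 and Cc2d2a, whose transcript shares prompted the search, and 2 of them share 1 transcript of Cc2d2a, so the count restates that observation. The same order held for 6.8% of 1324 such exons over all genes, and the opposite order for 6.12%, and nothing is read from that comparison.

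The sequences of 3 of these exons are printed in capitals with 15 coding bases of the neighbouring exons in small letters. They are the 30-base exon 2 of Ttc8-201 (chr12:98937120-98937149, plus strand), the 21-base exon 8 of Cep290-210 (chr10:100495641-100495661, plus strand) and the 21-base exon 32 of Cc2d2a-201 (chr5:43728271-43728291, plus strand). All have a length divisible by 3, so that skipping keeps the reading frame.
Ttc8: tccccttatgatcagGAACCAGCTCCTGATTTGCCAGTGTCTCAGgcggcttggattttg
Cep290: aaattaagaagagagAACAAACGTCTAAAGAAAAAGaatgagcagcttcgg
Cc2d2a: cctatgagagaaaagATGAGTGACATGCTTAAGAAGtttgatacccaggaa

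The Ttc8 exon was included in 69.4%, 70.1% and 74.6% of transcripts in WT replicates 1 to 3 and in 30.9% in the library labelled WT replicate 4. In rd10 DMSO it was in 44.4%, 39.8% and 46.0%, and in rd10 HAL in 47.2%, 41.9% and 43.6%. The means were 71.4% ± 2.85 in WT replicates 1 to 3, 43.4% ± 3.24 in rd10 DMSO and 44.3% ± 2.69 in rd10 HAL (SD, n = 3 each). The transcripts used held 59.4% of the gene's counts.

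The Cep290 exon was in 87.5%, 94.99% and 89.5% of transcripts in WT replicates 1 to 3, in 70.2% in the library labelled WT replicate 4, in 53.9%, 63.0% and 75.3% in rd10 DMSO and in 44.3%, 62.5% and 51.8% in rd10 HAL. The rd10 libraries spread widely and all stayed below the WT ones, apart from the library labelled WT replicate 4, which lay among them. The Cc2d2a exon was in 78.1%, 75.0% and 80.1% in WT replicates 1 to 3, in 57.4% in the library labelled WT replicate 4, in 49.9%, 50.6% and 60.4% in rd10 DMSO and in 57.1%, 57.9% and 57.7% in rd10 HAL. A 15-base exon of Cc2d2a gave the same shares because it lies in the same transcript, so these are not independent. With 3 libraries against 3 an exact two-sided permutation test cannot give a p below 0.1, and none was run.

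The 8 other exons overlapped between WT and rd10. The 15-base exon of Bbs9 was in 47.9% ± 3.56 of transcripts in WT replicates 1 to 3 and in 48.3% ± 7.29 in rd10 DMSO (SD, n = 3), where the level of the gene fell by 2.06 on the log2 scale. The 13-base exon of Arl6 was in 88.5% ± 1.57 and 85.0% ± 4.05, and the 27-base exon of Ahi1 in 95.2% ± 2.61 and 95.5% ± 0.264. The 9-base exon of Kif3a was in 87.6% ± 1.26 and 93.2% ± 1.09, and overlapped with WT through rd10 HAL replicate 1 at 88.6%. The 33-base exon of Wdr35, outside the rule for named genes, was in 84.9% ± 7.35 and 70.6% ± 19.8, and in 60.9% ± 12.1 in rd10 HAL. It overlapped with WT only through rd10 DMSO replicate 3 at 88.8%.

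**Figure D3:**
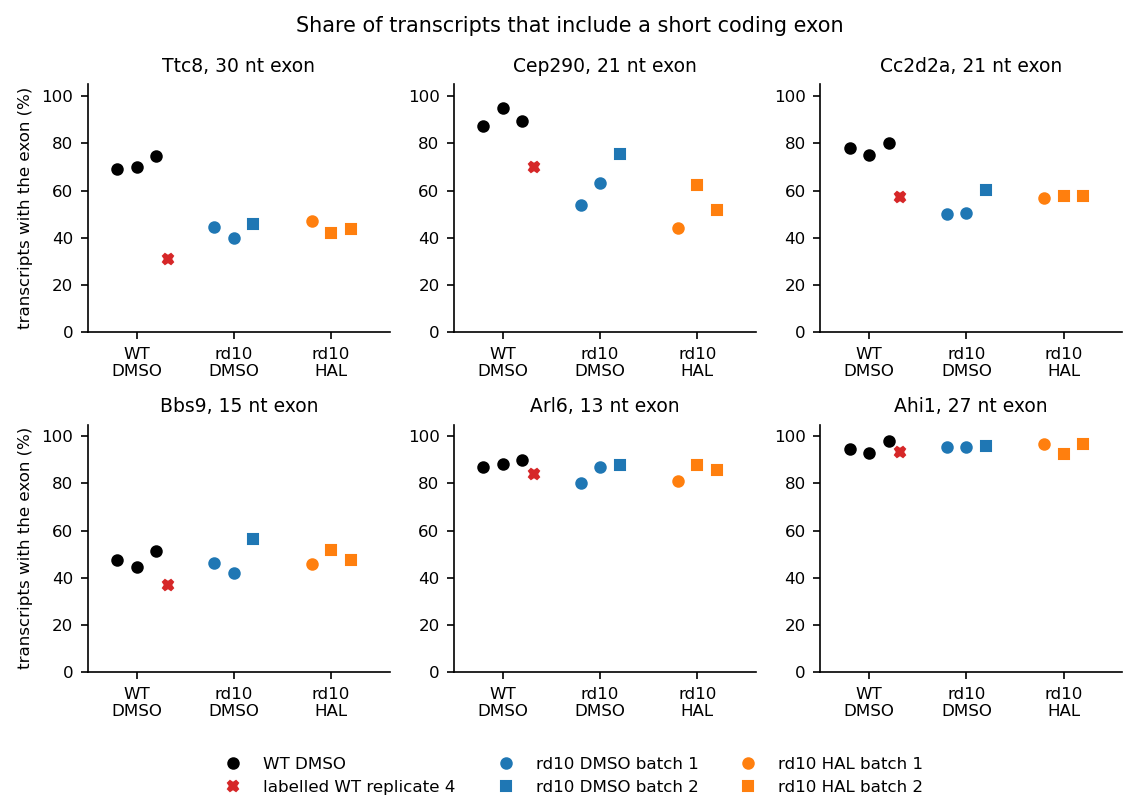
Share of transcripts (%) that include a short coding exon, in each of the 10 libraries, for 6 exons; circles are batch 1, squares batch 2, and the red cross is the library labelled WT replicate 4. WT replicates 1 to 3 sit above all rd10 libraries for Ttc8, Cep290 and Cc2d2a and overlap them for Bbs9, Arl6 and Ahi1.

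Halofantrine was then compared with DMSO in the 6 rd10 libraries, as the treatment comparison of the study. No member passed the test between the treatments. The test of edgeR called none of 11692 genes at an adjusted p of 0.05, 557 genes (4.76%; 2.54% higher and 2.22% lower) had an unadjusted p under 0.05, among them 1 member higher and 1 lower, DESeq2 called 3 genes and no member, and limma-voom called 0. Treatment was not balanced over the batches, and with batch as a term 1943 genes (16.6%) had an unadjusted p under 0.05, none passed the adjustment, and the members' median was -0.03. Without that term the members' median log2 difference was 0.01, with 25 above 0 and 24 below. In 6 members the rd10 HAL libraries were all above the rd10 DMSO libraries (Bbs1, Ift20, Ift88, Nphp4, B9d2 and Kif3a), an order seen in 6.91% of all genes, and in 2 all below (Bbs10 and Rp2), seen in 6.18%.

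The smallest unadjusted p among the members was that of Tulp1. Its 216, 348 and 322 CPM in rd10 HAL overlapped the 198, 209 and 233 CPM in rd10 DMSO, and the log2 difference was 0.47 ± 0.17 (unadjusted p = 0.0274, adjusted p = 0.883 by edgeR). With batch as a term it was 0.30 (adjusted p = 0.269). Within batch 1, with rd10 HAL replicate 1 as the only treated library, it was 0.09. Within batch 2, with rd10 DMSO replicate 3 as the only DMSO library, it was 0.52. The titles of the batch 2 libraries read last_rd10 for HAL and final_rd10 for DMSO, so set and treatment cannot be told apart there. The edgeR difference without a batch term was the one refitted next. That difference ranged from 0.33 to 0.65 when 1 library was left out. Rp2 stood at 15.5, 15.2 and 16.0 CPM in rd10 HAL and at 19.3, 17.1 and 17.5 CPM in rd10 DMSO, so every treated library was lower, by -0.21 ± 0.09 (unadjusted p = 0.0462, adjusted p = 0.883). With batch as a term it was -0.20 (adjusted p = 0.323).

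The remaining members with the lowest p in each direction gave the same picture. Nphp4 was at 0.19 ± 0.08, the transition zone gene B9d2 at 0.24 ± 0.11, and Ift20 and Ift88 both at 0.15, with standard errors of 0.07 and 0.08. On the other side the IFT-A gene Ift43 was at -0.22 ± 0.12, Bbs10 at -0.17 ± 0.11, the IFT-A gene Wdr19 at -0.10 ± 0.07 and Ttc8 at -0.10 ± 0.07, and all of these had an adjusted p of 0.883. Cep290 was at 0.11 ± 0.09 (adjusted p = 0.885) and Rpgrip1 at -0.02 ± 0.21 (adjusted p = 0.991). A term for a treatment effect that differs between batches, added after the values were seen, called 49 of 11701 genes and no member, with an unadjusted p under 0.05 in 6 of the 49 members, where 18.4% of all genes had one, and a smallest adjusted p of 0.0549. The batch 1 halofantrine group and the batch 2 DMSO group hold 1 library each, so this term rests on single libraries. Rod markers were not called either, with a median of 0.12, while the summed level of 3 blood genes was 96.5 and 79.6 CPM in rd10 HAL replicates 2 and 3 and at most 30.8 CPM in the other rd10 libraries. The summed level of 5 pigment epithelium genes was 152 to 370.1 CPM in rd10 DMSO and 108 to 211 CPM in rd10 HAL. The part of blood and pigment epithelium in these values was not tested.

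The batch labels cross treatment in the rd10 libraries, so batch 2 was compared with batch 1 with treatment as a term. Of the 49 members 6 were higher in batch 2 (12.2%) and none lower, while 4.63% of all 11698 genes passed, 3.09% higher and 1.55% lower. In all, 34 members lay above 0, as did 48% of all genes. The 6 were Bbs7, Unc119, Arl6, Bbs9, Rpgrip1 and Bbs5, so 4 of the 10 BBSome genes, 1 of the RPGR module and 1 cargo carrier. None of the 13 IFT-B, 6 IFT-A or 10 transition zone genes passed. All 12 rod markers were also higher in batch 2, with a median of 1.20, and their summed level was 4064 to 4422 CPM in batch 1 and 8155 to 11718 CPM in batch 2. The summed cone level was 2116 to 2288 CPM in batch 1 and 2508 to 2701 CPM in batch 2, and 2 cone markers were called higher. The summed bipolar level was 2797 to 2924 CPM in batch 1 and 2423 to 2660.3 CPM in batch 2, and the microglia level 125 to 144 CPM and 107 to 122 CPM. Of the Müller glia, bipolar, and amacrine and ganglion cell markers, 2 each were called lower, and the 3 blood genes had a median of 1.46. The labels do not say what a batch shares, and the part of these cell markers in the member differences was not tested.

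Bbs7 stood at 42.6, 44.8 and 42.5 CPM in the 3 rd10 libraries of batch 1 and at 74.3, 62.6 and 58.3 CPM in those of batch 2, without overlap, a log2 difference of 0.63 ± 0.07 (adjusted p = 0.00664). Bbs9 stood at 26.1, 29.1 and 26.0 CPM in batch 1 and at 39.2, 39.0 and 35.3 CPM in batch 2 (0.51 ± 0.08, adjusted p = 0.0207). Arl6 was at 50.1, 60.0 and 46.4 CPM and at 88.3, 65.1 and 62.2 CPM (0.57 ± 0.09, adjusted p = 0.0183). In each of these genes rd10 DMSO replicate 3 was the highest of the 6 libraries.

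Rpgrip1 was at 399, 501 and 423 CPM in batch 1 and at 699.9, 587 and 569 CPM in batch 2 (0.54 ± 0.09, adjusted p = 0.0264), and Unc119 at 313, 303 and 317 CPM and at 410, 425 and 388 CPM (0.38 ± 0.05, adjusted p = 0.0139). Bbs5, a membrane-binding BBSome subunit outside the rule for named genes, differed most, at 0.75 ± 0.14 (adjusted p = 0.0309). Tulp1 was at 0.42 ± 0.10 and missed the threshold (adjusted p = 0.0594).

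The calls between batches, more than the differences, changed with the libraries used. Without rd10 DMSO replicate 3, the batch difference rests on rd10 HAL replicates 2 and 3 against rd10 HAL replicate 1 alone. There the log2 differences were 0.63 for Tulp1, 0.51 for Bbs7, 0.51 for Bbs9, 0.46 for Arl6, 0.45 for Rpgrip1 and 0.36 for Unc119. Without rd10 HAL replicate 1, it rests on rd10 DMSO replicate 3 alone against rd10 DMSO replicates 1 and 2. Calls from fits that rest on a single library are not given. Without rd10 HAL replicate 2, 2 members were higher, where 1.48% of all genes were. In 15 members all batch 2 libraries were above all batch 1 libraries, where 14.6% of all genes were, and in 1, the IFT-B gene Ift172, all were below, as in 13.2% of all genes.

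Several members that were lower in rd10 than in WT lay near 0 between batches. Ttc8 was at -0.03 ± 0.07, Bbs1 at 0.04 ± 0.05, Ift122 at -0.09 ± 0.08, Cep290 at 0.10 ± 0.09 and Nphp4 at 0.04 ± 0.09 in batch 2 against batch 1, with adjusted p-values from 0.445 to 0.802. Besides Ift122, the members below 0 with the smallest p were Ift172 at -0.26 ± 0.06 (adjusted p = 0.0647), Ift140 at -0.12 ± 0.07, Ift27 at -0.22 ± 0.15 and Kif3a at -0.07 ± 0.06. Whether the batch difference of Bbs7 differs from that of Ttc8 was not tested.

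**Figure D4:**
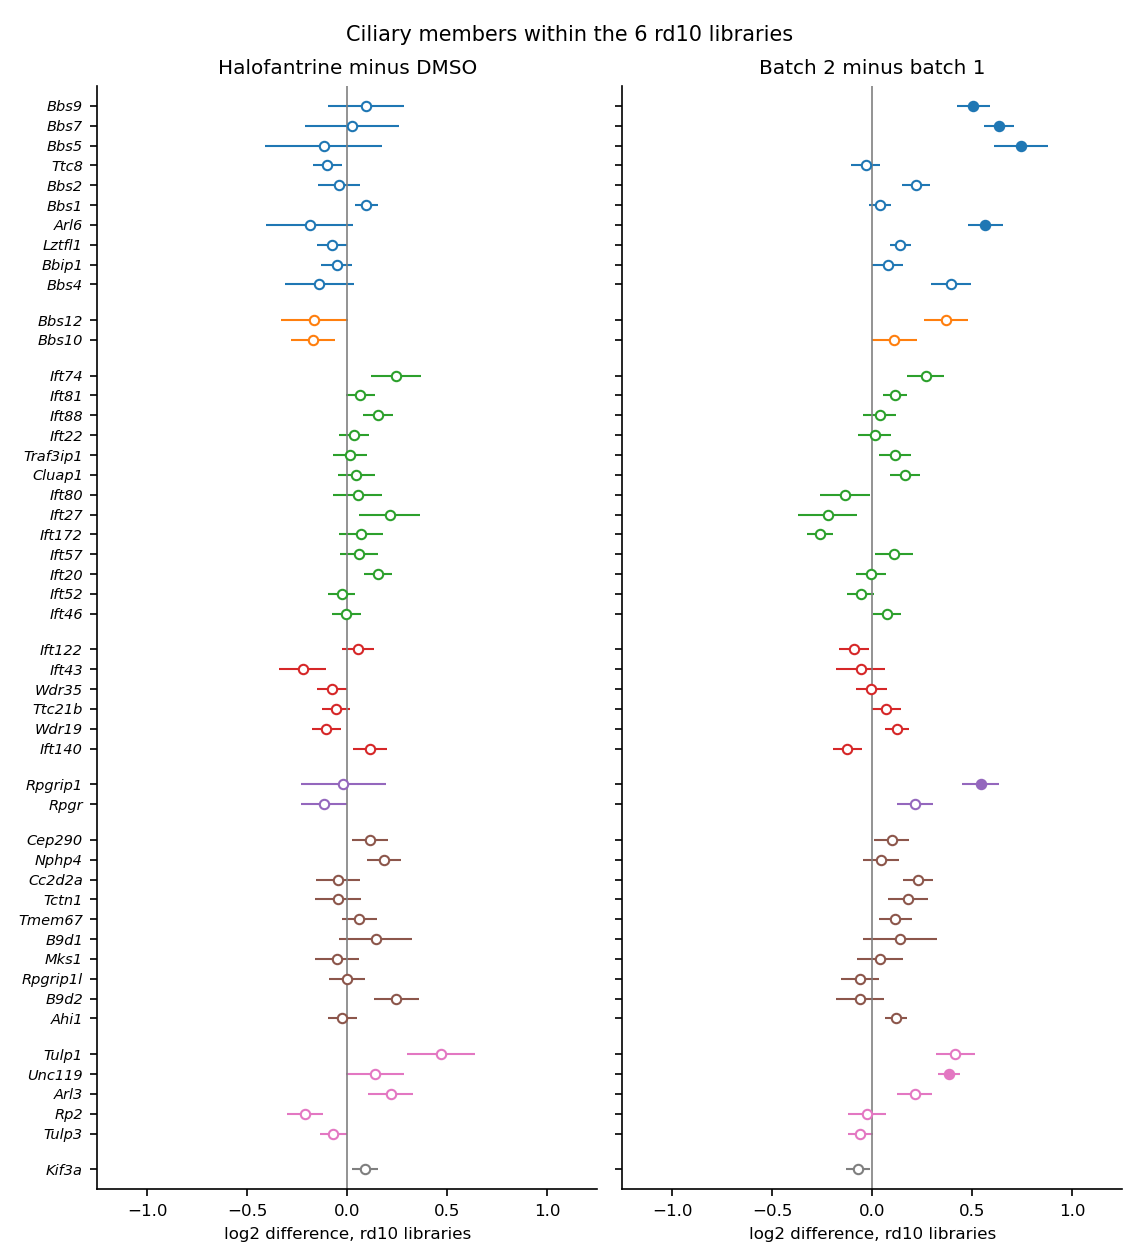
Log2 differences of the 49 members within the 6 rd10 libraries, halofantrine minus DMSO on the left and batch 2 minus batch 1 on the right, ordered and coloured by role; bars are 1 standard error, filled points have an adjusted p under 0.05. No point is filled on the left, and on the right the 6 filled points lie between 0.38 and 0.75.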

How the data were processed

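Retinal RNA of 10 female mice was analysed, grouped by the labels. Per the labels and the study's methods, stranded libraries were pseudoaligned by Kallisto to an Ensembl transcriptome (GRCm39 per the submitters' notes) and imported with tximport. The authors deposited estimated counts per gene (11702 genes) and per transcript (275112). They also deposited CPM values, each gene count divided by 1 factor per library and so a signal scaled by size factors, which were only compared with the counts. Their table of the halofantrine comparison holds fold changes and p-values and was not used.

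Estimated counts were rounded, filtered by filterByExpr, scaled by TMM and tested in edgeR 4.0.16 (quasi-likelihood F test, R 4.3.3) with Benjamini-Hochberg adjustment over all genes. Standard errors came from the F statistic, and figures were drawn with matplotlib 3.10.9. The fits were tested on simulated data with planted changes. Alternatives were DESeq2 1.42.0, limma-voom (limma 3.58.1), other scalings, filters and terms, and leaving out each library. Counts per library ranged from 15512212 to 38160436. Nothing says whether mice of a group shared a litter, so p-values measure only the spread between these samples.

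Statistics went to the 5 members per direction with the smallest p in each gene comparison (without the library labelled WT replicate 4 for rd10 against WT), to 9 members fixed by name (Rpgr, Rpgrip1, Cep290, Tulp1, Unc119, Arl3, Rp2, Bbs1 and Ift88), and to transcripts whose share of a gene moved by 15 percentage points or more. Members and lists were chosen with earlier results of these data known. Transcripts were matched to GENCODE M21 (GRCm38) by identifier, and 97.4% to 97.7% of the counts of each library matched. Promoters came from RefSeq (GRCm38.p6). The values of 1 gene of the wider ciliary list are not reported here.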

Additional observations from a re-analysis of the deposited data

Results flagged for a closer look

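In 15 of the 26 members named by rule, 1 library lay far from the other 3 labelled WT: its gap to the nearest of them, divided by the range over all 4, was above Dixon's 95% critical value, which chance exceeds in about 1 in 20 groups. Of all 11702 genes, 29% had such a gap, and 28.2% had it through the library labelled WT replicate 4. Many of the 26 were named for a difference between rd10 and WT replicates 1 to 3, so that a WT library at the rd10 level stands apart in them by choice of gene, and the count of 15 is a description. The library was that labelled WT replicate 4 in each case. The share was 0.98 for Bbs7, 0.967 for Unc119, 0.962 for Ttc8, 0.961 for Ift88, 0.954 for Tulp1, 0.953 for Kif3a, 0.952 for Bbs9, 0.949 for Rpgrip1, 0.926 for Ift43, 0.903 for Bbs1, 0.902 for Arl6, 0.887 for Cep290, 0.884 for Tulp3, 0.861 for Ift122 and 0.843 for Arl3. The library was the lowest of the 4 for these members except for Tulp3 and Kif3a, in which it was the highest. The flags are not independent, since they come from the same library.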

How the results depend on the processing

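Of 1050 values recomputed under the alternatives, 932 kept their direction and their side of the threshold, or stayed within 1.5 times for a count. The cause of the other changes was not tested. With all WT libraries, DESeq2 called 589 genes and 8 members lower, scaling to inner retina markers 5808 genes and 46 members lower, and leaving out 1 library gave 0 to 7280 genes, 0 to 1 member higher and 0 to 42 lower, where the upper values are those without the library labelled WT replicate 4. Without that library, members higher numbered 3 under library size alone and 0 under inner retina scaling, and 1 to 2 when a further library was left out. In the halofantrine comparison DESeq2 called 3 genes, and leaving out 1 library gave 0 to 7. For batch 2 against batch 1, DESeq2 called 1419 genes and 1 member lower, the fit without a treatment term 218 genes and 3 members higher, and leaving out 1 library gave 91 to 2638 genes, 1 to 10 members higher and 0 to 2 lower. For transcripts, all 4 WT libraries left 1 call and 0 of the members, and leaving out 1 library left 4021 to 10722 calls and 55 to 101 member transcripts lower.

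Some values changed sign; brackets name the setting, and ranges cover leaving out 1 library in turn. With all WT libraries Rp2 became 0.13 (library size alone), 0.026 (without WT replicate 3) and 0.017 (without rd10 DMSO replicate 2; range from -0.073), and Kif3a -0.72 and Ahi1 -0.69 (inner retina scaling), with Kif3a -0.011, -0.0058, -0.0049 and -0.0029 without WT replicates 1, 2 and 3 and rd10 DMSO replicate 2. Without the library labelled WT replicate 4, Rp2 became 0.0036 (DESeq2), 0.0054 (limma-voom), 0.0030 (RLE), 0.21 (library size alone), 5.4e-05 (no filter), and 0.093, 0.038 and 0.014 without WT replicate 3 and rd10 DMSO replicates 2 and 3 (range from -0.069), and inner retina scaling gave -0.87 for Kif3a and -0.89 for Ahi1. Under halofantrine Rpgrip1 became 0.0049 (limma-voom), 0.23 (without rd10 DMSO replicate 3) and 0.11 (without rd10 HAL replicate 1), in a range from -0.19. Between batches Rp2 became 0.026 (inner retina scaling), 0.020 and 0.0038 (without rd10 DMSO replicates 1 and 3), in a range from -0.056. Ift27 became 0.034 (from -0.51) and Kif3a 0.011 (from -0.16) without rd10 DMSO replicate 3, and without rd10 HAL replicate 1 Cep290 became -0.0060 (up to 0.20) and Ift88 -0.074 (up to 0.14).

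Single genes gained the threshold without a change of sign in 36 cases and lost it in 15. Of the changes of sign, those of Kif3a (both comparisons with WT) and of Ahi1 (without the library labelled WT replicate 4) under inner retina scaling passed the threshold. Shares of the short exon of Ttc8 differed by 28.0 percentage points between WT replicates 1 to 3 and rd10 DMSO, and by 25.7 without length scaling, an alternative chosen after seeing the data. No paired analysis was possible because the replicate numbers, given here in accession order, mark no shared animal, litter or day. Depth limits most the low members such as B9d1, at 6.67 to 14.1 CPM.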
